A study of Mus musculus with 6 samples.

Results

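The genes described here are the AP-1 transcription factor genes Fos, Fosb, Fosl1, Fosl2, Jun, Junb and Jund together with the stress-induced genes Atf3 and Maff. They were taken by symbol from the count tables, which held all 9 of them among 24062 genes. All 9 passed the filter on low counts that left 13185 genes for testing. The RNA came from NIH3T3, an established line of mouse fibroblasts, which served to study the role of SPT6, a histone chaperone that travels with RNA polymerase II (gene Supt6), in interferon-stimulated transcription. All cells were grown in donor bovine serum and were transfected with siRNA for 48 h. The siRNA was either a negative control, whose libraries are titled WT, or 1 siRNA against SPT6. Cells were then left untreated, at 0 h by the titles, or given mouse interferon beta (IFN-beta) at 100 units/ml for 4 h. There was 1 untreated library for each siRNA, called number 1, and there were 2 IFN-beta libraries for each, called numbers 1 and 2. No library of cells kept for 4 h without IFN-beta is named, so time and IFN-beta cannot be told apart. The labels do not say whether the 2 numbers were separate cultures, so the p-values cover only the spread from library to library, which may be technical.

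AP-1 is a dimer of proteins with a basic region that holds DNA and a leucine zipper that joins the partners, a fold abbreviated bZIP. Jun proteins can pair with each other or with Fos proteins, whereas Fos proteins need a Jun partner. Several of these genes are immediate early genes, which fibroblasts transcribe within minutes of serum, growth factors or stress and whose mRNAs are short-lived. Atf3 encodes a member of the ATF and CREB branch that accumulates under many stresses and can repress as a homodimer. Maff encodes a small Maf protein, which binds DNA but has no activation domain of its own. CREB and ATF proteins bind the cyclic AMP response element, TGACGTCA, or its half-site TGACG, while AP-1 favours TGANTCA, in which N is any base.

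RefSeq promoter windows on GRCm38.p6, from 250 bases before to 50 after each annotated start, were found for 8 of the 9 genes, all but Fosl1. Read on both strands, the half-site was present in the windows of 5 genes, namely Fos, Fosb, Junb, Atf3 and Maff, against 23.0% of all 27025 genes in the same table. The motifs were chosen after the windows and the values had been seen. The full element TGACGTCA, which contains the half-site, was found in the window of Maff alone among the 8 (2.03% of all genes), and TGANTCA in none (8.97%). No window of the 8 held a CArG box, the site of serum response factor (1.81%). In 1, that of Fosl2, lay GAAA and GAAA separated by any 2 bases, a form of the interferon response element (3.99%). Bases more than 250 upstream were not read, so any site there would be missed. The pattern TGACNTCA, which covers the full element, was found for 2 of the 8, Jun and Maff, against 10.0% of all genes. In Jun its letters are TGACATCA, a form of the AP-1 site for which this promoter is known, and another start site of Maff holds the same letters. For Jund the RefSeq window lies upstream of the start that GENCODE gives. For Atf3, Fosl2 and the Maff start sites with matches, the windows lie inside the longer gene of GENCODE. Fos held a second half-site and Maff a second one at another start site, which are not printed. The stretches below show those matches in the 5 genes with a half-site and in Jun, 5′ to 3′ on the gene's own strand. Capitals mark the match, and the position given is that of the match relative to the start site.
Fos, -66 to -62, chr12:85473799-85473853, plus strand: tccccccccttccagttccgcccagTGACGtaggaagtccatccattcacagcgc
Fosb, -60 to -56, chr7:19310076-19310130, minus strand: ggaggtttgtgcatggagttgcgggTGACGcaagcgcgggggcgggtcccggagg
Junb, -106 to -102, chr8:84978825-84978879, minus strand: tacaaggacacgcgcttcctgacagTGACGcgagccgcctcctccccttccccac
Atf3, -7 to -3, chr1:191183334-191183352, minus strand, the half-site on the opposite strand: ttaatagcattaCGTCAgc
Maff, start site 2 of the RefSeq table, -29 to -22, chr15:79347466-79347519, plus strand: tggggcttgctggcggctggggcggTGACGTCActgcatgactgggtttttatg
Jun, -45 to -38, chr4:95052235-95052292, minus strand: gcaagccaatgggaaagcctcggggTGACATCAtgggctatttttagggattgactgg
A match describes letters in a window and not a bound site. No binding was measured in these libraries.

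Counts in genes ran from 7935961 to 17596498 per library, and in all 3 pairs the SPT6 siRNA library was less deep than its control. A single count was worth 0.0594 to 0.12 CPM (counts scaled to a common library size with TMM factors), so a gene at 1 CPM rests on few counts. The target gene Supt6 stood at 175, 177 and 189 CPM in the control siRNA libraries, against 101, 108 and 88.4 CPM in the matching SPT6 siRNA ones (log2 difference with IFN-beta -0.90 ± 0.18, SE; edgeR adjusted p = 0.247). All 3 SPT6 siRNA libraries lay below all 3 control libraries. The share of counts from the ribosomal RNA precursor Rn45s was 2.39% in SPT6 siRNA IFN-beta number 2 and 0.841% to 1.34% in the other 5 libraries. Fibroblast markers summed to 12773 to 19730 CPM and epithelial markers to 0.247 to 0.957 CPM, with Epcam and Krt5 at 0 counts in every library.

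Per kilobase of exon, 4 genes had the highest median levels. The median RPKM (CPM per kilobase of exon) over the 6 libraries was 30.9 for Jund, 28.0 for Jun, 27.6 for Fosl2 and 23.2 for Junb. Ranges over libraries overlapped for each neighbouring pair of these 4, for example 21.8 to 50.8 RPKM for Jund and 19.5 to 44.3 for Jun. Maff followed at a median of 10.6 RPKM (2.79 to 27.0, overlapping the range of 12.7 to 43.0 for Junb) and Fosl1 at 3.14 (1.76 to 11.1). Atf3, Fos and Fosb were lowest, with medians of 1.61, 1.48 and 0.379 RPKM. Fosb was below both Fos and Atf3 in each of the 6 libraries, while the ranges of Fos (0.507 to 3.96 RPKM) and Atf3 (0.458 to 3.51 RPKM) nearly coincided.

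The 5 genes with the lowest medians also had the widest ranges. Between its lowest and highest library Fosb spanned 11.6-fold in CPM (5 to 50 counts), Maff 9.68-fold, Fos 7.82-fold, Atf3 7.67-fold and Fosl1 6.27-fold. By contrast Fosl2, the most abundant Fos family mRNA, spanned 1.71-fold. Junb spanned 3.38-fold and Jun and Jund 2.27-fold and 2.32-fold. Exons of Fosl1 (chromosome 19, 5447547 to 5455946, plus strand) overlap those of Ccdc85b on the opposite strand over 1055 of 1864 bases. Jun (chromosome 4, 95049034 to 95052222) and Jund (chromosome 8, 70698949 to 70700616) overlap antisense transcripts over 232 and 543 bases. The strand setting of the counting is not given in the sources used here, and reads from the overlapping genes cannot be told apart without it.

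**Figure D1:**
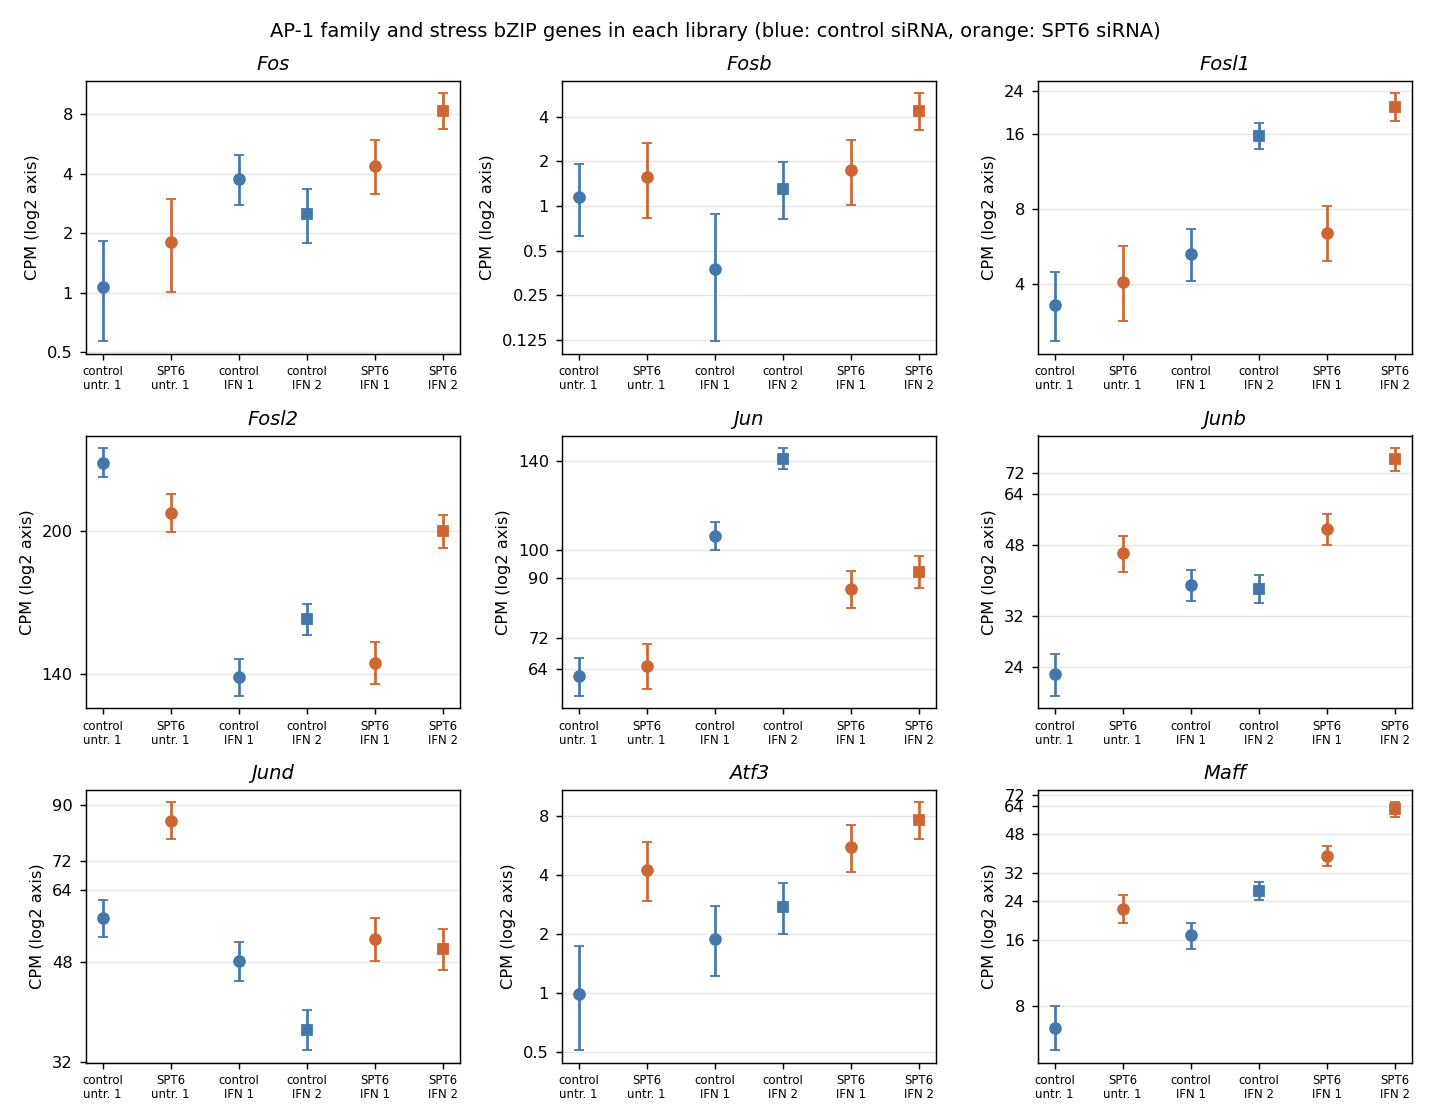
Level of each gene in each of the 6 libraries, in CPM on a log2 axis that differs between panels; bars are exact 95% Poisson intervals, which cover counting error only. Circles are number 1 and squares number 2; Atf3 runs from 0.986 CPM in the untreated control library to 7.57 CPM in SPT6 siRNA IFN-beta number 2, and Fosl2 is highest in the 2 untreated libraries.

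The replicated comparison was that of SPT6 siRNA with control siRNA in IFN-beta treated cells. The stress genes Atf3 and Maff and the Jun family gene Junb lay higher in both SPT6 siRNA libraries, and also in the untreated SPT6 siRNA library, whereas Jun lay lower in both IFN-beta libraries. None of these differences passed the test over all genes, edgeR's quasi-likelihood test with a Benjamini-Hochberg adjusted p under 0.05, which called 0 of 13185 genes (0% in either direction). DESeq2 called 62 genes and limma-voom 0, and no member was among them. With the replicate number as a block, edgeR called 2638 of 13185 genes, 6 members among them. The labels do not say what the numbers mark, so that fit is given only as an alternative. At an unadjusted p under 0.05, 5 of the 9 members were higher, against 7.36% of all genes tested, and none was lower, against 4.31%. This count was 2 without SPT6 siRNA number 2, 3 without control number 1 and 3 in DESeq2. Over the 9 members the median log2 difference was 0.79, with 8 above 0, against -0.02 over all genes. Fewer cells in a given state and less RNA per cell cannot be told apart in such bulk samples.

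Atf3 (chromosome 1, 191170296 to 191218039, minus strand) stood at 1.88 and 2.73 CPM in the control libraries, against 5.51 and 7.57 CPM in the SPT6 siRNA libraries. The 2 groups did not overlap. The log2 difference was 1.49 ± 0.37 (SE; adjusted p = 0.309). Untreated libraries held 0.986 CPM with control siRNA (12 counts) and 4.2 CPM with SPT6 siRNA (35 counts), a ratio of 4.26 with an exact 95% counting interval of 2.16 to 9. All 3 SPT6 siRNA libraries, the untreated one included, were thus above all 3 control libraries.

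Maff (chromosome 15, 79346621 to 79359076, plus strand) was at 16.7 and 26.6 CPM in the control libraries, against 38.3 and 62.0 CPM after SPT6 siRNA, again without overlap. Its log2 difference was 1.21 ± 0.32 (SE; adjusted p = 0.330). In untreated cells it was at 6.41 and 22.1 CPM, a ratio of 3.44 (counting interval 2.63 to 4.55). Within the IFN-beta pairs of the same number the ratio was 2.29 and 2.33, so the siRNA difference was alike in both numbers. Among the 36 pairs of members, Atf3 and Maff had the most alike profiles over the 6 libraries, with a root mean square difference of 0.304 log2 units between their mean-centred levels.

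Junb (chromosome 8, 84974484 to 84978718, minus strand) encodes a Jun protein that often opposes Jun in growth control. The control libraries held 38.1 and 37.4 CPM of it, the SPT6 siRNA libraries 52.3 and 77.8 CPM. The log2 difference was 0.79 ± 0.23 (SE; adjusted p = 0.350). The control libraries lay close together, and the SPT6 siRNA libraries lay apart from them and from each other. Untreated cells held 23.0 and 45.7 CPM, a ratio of 1.99 (counting interval 1.70 to 2.33).

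Jun itself went the other way. The controls held 106 and 141 CPM, against 86.4 and 92.3 CPM after SPT6 siRNA, a log2 difference of -0.47 ± 0.20 (SE; adjusted p = 0.429). Both SPT6 siRNA libraries were below both control libraries. Without IFN-beta, Jun was at 62.2 and 64.6 CPM, a ratio of 1.04 whose counting interval of 0.929 to 1.16 includes 1. Jund, the Jun gene that responds least to serum, was at 48.1 and 36.4 CPM in the controls, against 52.5 and 50.5 CPM after SPT6 siRNA (log2 difference 0.29 ± 0.20).

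The balance of the 2 genes inside a library needs no scaling between libraries. There were 2.70, 2.77 and 3.78 Jun counts for each Junb count in the control siRNA libraries (untreated, IFN-beta number 1 and number 2). In the matching SPT6 siRNA libraries the ratio was 1.41, 1.65 and 1.19. No exact 95% counting interval of a control library overlapped that of an SPT6 siRNA library, the nearest being 2.35 to 3.11 and 1.48 to 1.85. The geometric mean ratio with SPT6 siRNA was 0.461 times that with control siRNA. An exact two-sided permutation test over the 3 libraries of each siRNA, pooled over treatment, gave p = 0.1, the smallest that 3 against 3 allows. This ratio was chosen after the levels of both genes had been seen, so the p-value is no separate support. The pooling also sets aside the treatment and the matching of libraries.

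**Figure D2:**
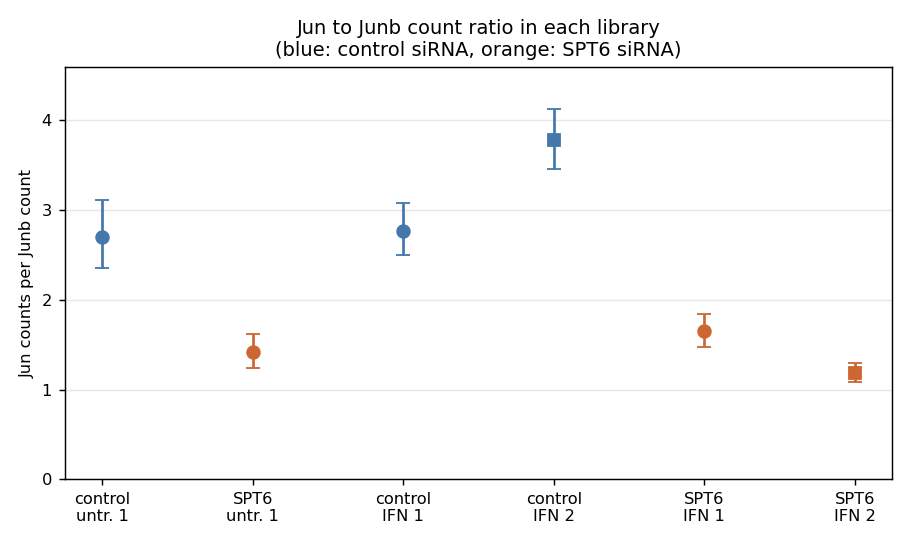
Jun counts divided by Junb counts in each library, on an axis from 0; bars are exact 95% binomial intervals, which cover counting error only. The 3 control siRNA libraries lie between 2.70 and 3.78 and the 3 SPT6 siRNA libraries between 1.19 and 1.65.

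The Fos family showed less even differences. Fos (chromosome 12, 85473890 to 85477273, plus strand) was at 3.76 and 2.49 CPM in the controls, against 4.38 and 8.35 CPM after SPT6 siRNA, without overlap and with a log2 difference of 1.04 ± 0.43 (SE; adjusted p = 0.425). Most of it came from 1 library, since the ratio was 1.16 within number 1 (counting interval 0.756 to 1.79) and 3.35 within number 2 (2.31 to 4.94). Without SPT6 siRNA number 2, the library with the highest Rn45s share, the log2 difference was 0.49. With the Rn45s counts left out of all libraries it was 1.03, a change that bears on scaling only. Whether SPT6 siRNA number 2 differed in RNA quality was not tested. Fosb (chromosome 7, 19302696 to 19310051, minus strand) had 5 and 22 counts in the controls against 17 and 50 counts after SPT6 siRNA, or 0.376 and 1.31 against 1.73 and 4.35 CPM, without overlap. The difference of 1.81 ± 0.70 on the log2 scale (adjusted p = 0.401) rests on the fewest counts of the 9 genes, with a ratio of 4.6 within number 1 (counting interval 1.63 to 16). The log2 difference was 0.996 without SPT6 siRNA number 2 and 2.99 without control number 2. Gene counts do not separate full-length FosB from its shorter splice form.

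Fosl1 and Fosl2, which encode the Fos-related antigens and lack the strong activation domain of Fos, showed no siRNA difference beyond their spread. For Fosl1 the control libraries held 5.27 and 15.8 CPM, against 6.42 and 20.6 CPM after SPT6 siRNA. It was number and not siRNA that separated its high from its low libraries. The log2 difference by siRNA was 0.36 ± 0.73 (SE), an interval that spans a lower and a higher level. Without control number 1 it was -0.20 and without SPT6 siRNA number 2 it was -0.72. Fosl2 (chromosome 5, 32135801 to 32157842, plus strand) was at 139 and 160 CPM in the controls, against 144 and 200 CPM after SPT6 siRNA, so that the groups overlap (log2 difference 0.20 ± 0.21). The difference was -0.061 without SPT6 siRNA number 2.

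Counted over groups that do not overlap, 6 members were higher in both SPT6 siRNA IFN-beta libraries than in both controls (Fos, Fosb, Junb, Jund, Atf3 and Maff), against 22.7% of all genes, and 1 (Jun) was lower, against 21.3%. Over all 3 pairs, 7 members were higher with SPT6 siRNA in each pair and none lower in each, against 25.8% and 28.3% of all genes. Those 7 were the same 6 genes and Fosl1. In the untreated pair alone, which has no replicate check, 4 members were more than 1.5-fold higher (Fos, Junb, Atf3 and Maff), against 8.52% of all genes, and none was more than 1.5-fold lower, against 6.95%. Of these, Fos rests on 15 and 13 counts, and its ratio of 1.68 has a counting interval of 0.747 to 3.84, which includes 1.

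**Figure D3:**
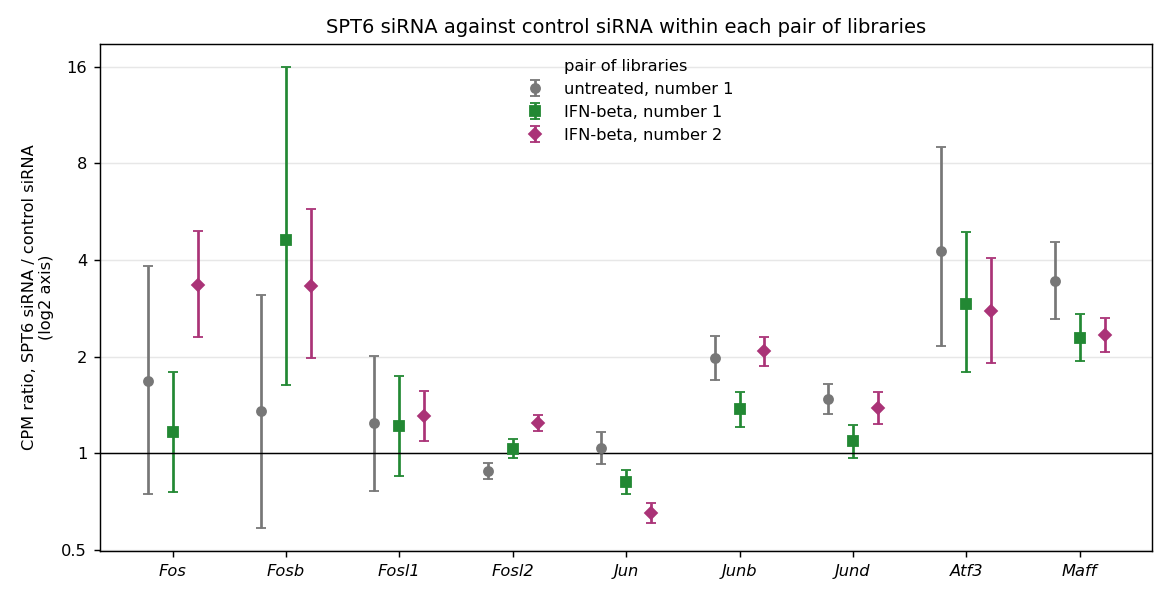
Ratio of CPM with SPT6 siRNA to CPM with control siRNA within each of the 3 pairs of libraries, on a log2 axis where 1 is no difference; bars are exact 95% counting intervals. Maff (2.29 to 3.44) and Atf3 (2.77 to 4.26) are above 1 in each pair, and Jun goes from 1.04 in the untreated pair to 0.817 and 0.653 with IFN-beta.

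Next came the response to 4 h of IFN-beta with control siRNA, in which 2 libraries were set against 1. Jun and Maff lay highest relative to their spread. The edgeR test called 18 genes, all higher (0.137% of genes tested), and no member. At an unadjusted p under 0.05, 4 members were higher (Fos, Jun, Junb and Maff), against 5.29% of all genes, and 1 (Fosl2) was lower, against 2.94%. The spread comes from the IFN-beta groups only, so the single untreated library is assumed to vary like them. The same 2 control IFN-beta libraries enter this and the previous comparison.

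Jun went from 62.2 CPM untreated to 106 and 141 CPM, a log2 difference of 0.99 ± 0.25 (SE; adjusted p = 0.405). Maff went from 6.41 to 16.7 and 26.6 CPM (1.76 ± 0.44; adjusted p = 0.408). DESeq2 gave Maff an adjusted p of 0.0134 in this comparison, its only call among the members, against 204 of all 13185 genes tested. The untreated level of Fos was 1.07 CPM (13 counts), against 3.76 and 2.49 CPM with IFN-beta, and Junb was at 23.0, 38.1 and 37.4 CPM. Fosl2 went from 237 CPM to 139 and 160 CPM, a log2 difference of -0.66 ± 0.25 (SE; adjusted p = 0.578). Jund lay lower as well, going from 57.2 CPM to 48.1 and 36.4 CPM. These 2 were the only members with both IFN-beta libraries below the untreated one, while 6 members had both above it. Such order is common in 2 against 1, where 35.2% of all genes were higher and 38.1% lower without overlap.

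With SPT6 siRNA the IFN-beta response was smaller for Jun and Maff in the fitted values. Jun went from 64.6 CPM to 86.4 and 92.3 CPM (log2 difference 0.47 ± 0.25), and Maff from 22.1 to 38.3 and 62.0 CPM (1.19 ± 0.42). Fos went from 1.80 CPM to 4.38 and 8.35 CPM (1.82 ± 0.61; adjusted p = 0.793), and the fitted response of Fosl1 was of like size with a wider error (1.73 ± 1.02). Without SPT6 siRNA number 2 these were 1.26 and 0.64. Jund went from 84.7 CPM to 52.5 and 50.5 CPM, a log2 difference of -0.72 ± 0.24 (adjusted p = 0.796). The edgeR test called 6 genes, all higher (0.0455%), and no member. At an unadjusted p under 0.05, Fos and Maff were higher, against 3.84% of all genes, and Jund was lower, against 2.01%. Both IFN-beta libraries were above the untreated one for 7 members and below it for Fosl2 and Jund, against 34.5% and 34.6% of all genes.

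The difference between the 2 responses was tested as an interaction and called no gene in edgeR (0% in either direction) and none in DESeq2 or limma-voom. At an unadjusted p under 0.05, 0 members were higher or lower, against 0.296% and 0.0834% of all genes (50 genes). For Jun the response with SPT6 siRNA was lower by a log2 value of -0.52 ± 0.34 (SE) and for Maff by -0.57 ± 0.58, both with an edgeR adjusted p = 0.9999. For Atf3 it was -0.58 ± 0.68, for Junb -0.20 ± 0.40 and for Fosb 1.38 ± 1.27. With 1 IFN-beta library left out, the value for Jun ran from -0.69 to -0.30, that for Maff from -0.98 to -0.20 and that for Fosb from 0.54 to 2.55. Errors of this size, with 1 untreated library for each siRNA, do not show that the responses were alike.

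**Figure D4:**
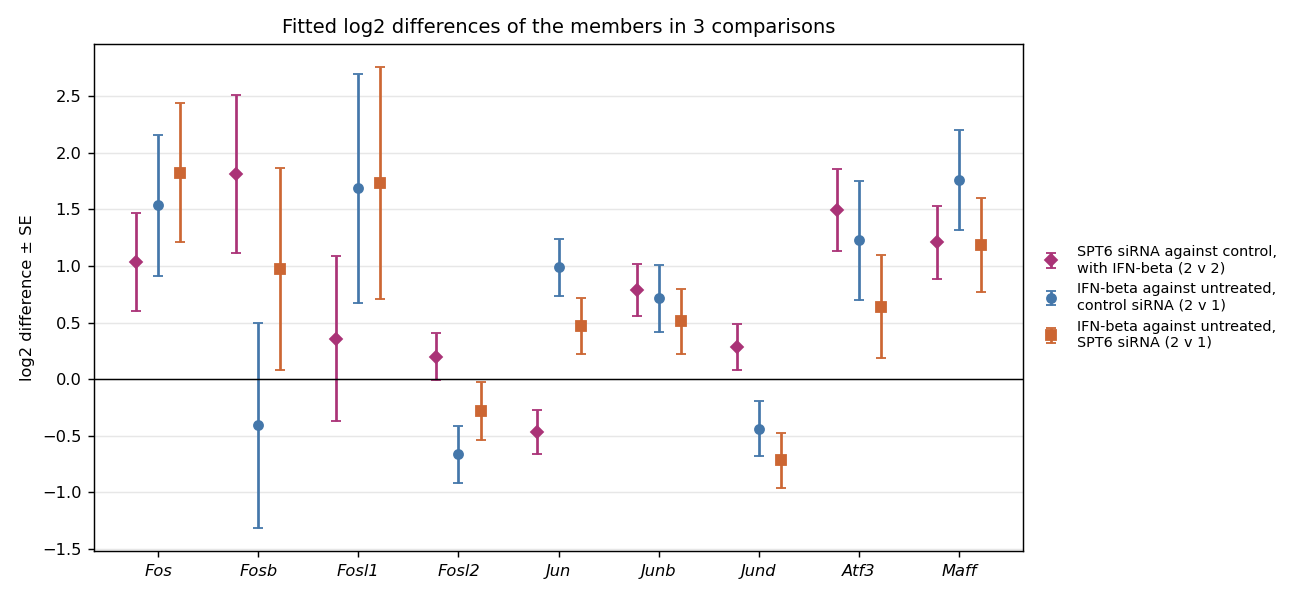
Fitted log2 difference of each gene in 3 comparisons, with bars of 1 SE; 2 v 2 and 2 v 1 give the libraries on each side. Atf3 (1.49), Maff (1.21) and Junb (0.79) lie above 0 and Jun (-0.47) below it for SPT6 siRNA with IFN-beta, and Fosl2 and Jund lie below 0 in both IFN-beta responses.

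These levels also set the make-up of each family. Of the summed RPKM of the Fos family, Fosl2 held 93.4% and 90.3% in the untreated libraries (control and SPT6 siRNA). With IFN-beta it held 81.8% and 71.1% in the controls, against 78.6% and 65.4% after SPT6 siRNA, the lower value being number 2 in both. Fosl1 held 4.54% and 6.17% untreated, 10.9% and 12.3% in the IFN-beta libraries of number 1 and 24.5% and 23.7% in those of number 2. Since 1055 of its 1864 exon bases overlap Ccdc85b, the shares of Fosl1 and Fosl2 depend on the strand setting, which is not given. Within the Jun family, Jund was the largest share in untreated cells, at 51.6% and 52.7%. With IFN-beta its share was 34.7% and 25.2% in the controls, against 36.0% and 29.6% after SPT6 siRNA. The share of Junb was 19.1%, 25.4% and 23.8% in the controls, against 26.2%, 33.1% and 42.1% after SPT6 siRNA, so that every SPT6 siRNA library was above every control library. Junb was the largest of the 3 in SPT6 siRNA IFN-beta number 2, and Jun the largest in both control IFN-beta libraries. Jun and Jund overlap antisense transcripts over 232 and 543 bases, so the Jun family shares depend on the strand setting too.

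**Figure D5:**
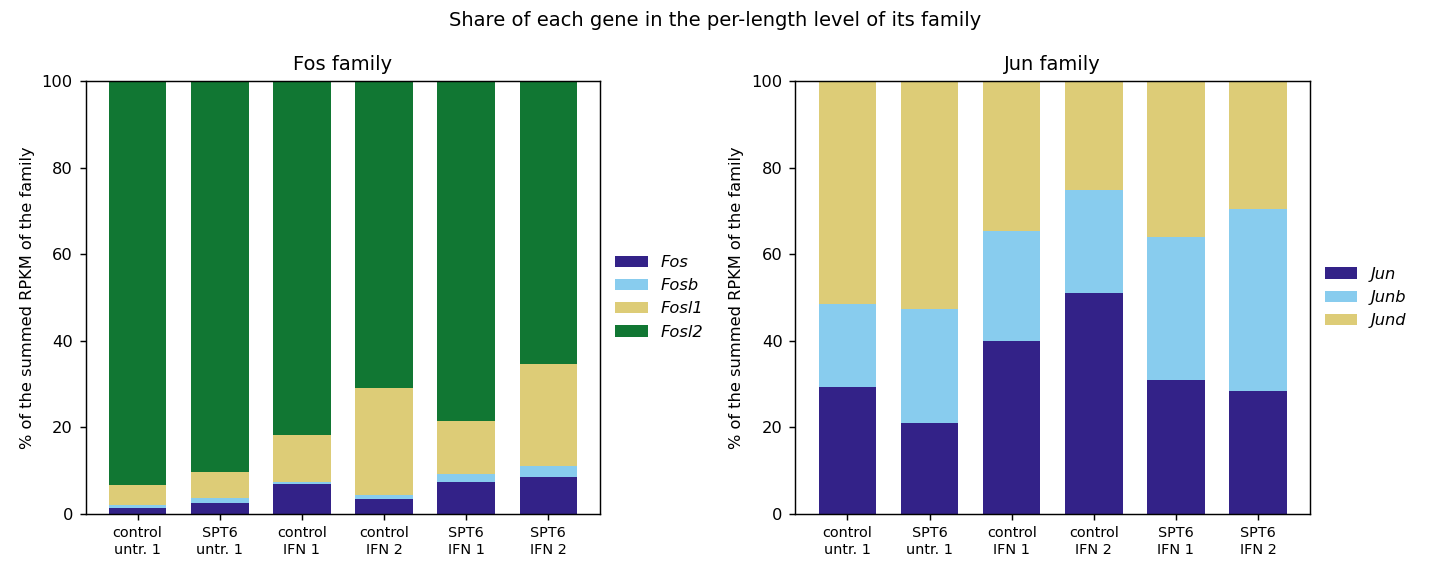
Share of each gene in the summed RPKM of the Fos family (left) and the Jun family (right) in each library, in percent. Fosl2 makes up 65.4% to 93.4% of the Fos family, and the Junb share is 26.2% to 42.1% with SPT6 siRNA against 19.1% to 25.4% with control siRNA.

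Between the 2 IFN-beta numbers of the same siRNA, 3 members were more than 1.5-fold higher in number 2 with both siRNAs (Fosb, Fosl1 and Maff), against 3.59% of all genes, and none was more than 1.5-fold lower, against 5.62%. The ratio of number 2 to number 1 was 2.996 in the controls, against 3.21 after SPT6 siRNA for Fosl1, and 1.59 and 1.62 for Maff. For Fosl1 this exceeded its ratio by siRNA, 1.22 and 1.31 within the numbers. Ccdc85b, whose exons overlap those of Fosl1, stood at 65.2 and 65.2 CPM in the control IFN-beta libraries and at 53.2 and 65.4 CPM in those with SPT6 siRNA. For Fos the 2 siRNAs went opposite ways, with a ratio of number 2 to number 1 of 0.662 in the controls, against 1.90 after SPT6 siRNA.

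The genes nearest to each member over the 6 libraries were sought among 9722 other genes with an average log2 CPM of 3 or more, by the root mean square difference of mean-centred log2 CPM. Nearest to Maff were Klhl21 (0.196), Gprc5a (0.199) and Mafk (0.210), against a median of 1.03 over all genes compared. Mafk encodes another small Maf protein and stood at 11.4, 23.9 and 38.9 CPM in the controls, against 29.3, 45.8 and 69.9 CPM after SPT6 siRNA (untreated, IFN-beta number 1 and number 2). It was higher with SPT6 siRNA in each pair, as were Maff and 25.8% of all genes. Since Mafk was found by its likeness to Maff over the same libraries, this shared order is no separate support. Nearest to Atf3 were Mreg (0.191), Tgoln1 (0.310) and Polr2l (0.321). Junb had Plin4 (0.0650), Jun had Pus7l (0.0616) and Jund had Sema3f (0.0605) as nearest genes. Fos and Fosb had looser neighbours, Plcxd2 (0.304) and Bcl6 (0.345), but their medians over all genes compared were also larger (0.915 and 0.928). Those of Junb, Jun and Jund were 0.573, 0.439 and 0.433.

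Other genes of the pathway were taken from lists of textbook members. None of their genes was called for SPT6 siRNA with IFN-beta. Of 26 other bZIP partners, 22 were tested, 2 were higher and 4 lower at an unadjusted p under 0.05 (against 7.36% and 4.31% of all genes), and the median log2 difference was -0.09. Higher were Mafk (0.88 ± 0.31, SE) and Crem, a CREB family gene (0.80 ± 0.24). Lower were Ddit3 (-0.75 ± 0.23) and Atf4 (-0.54 ± 0.19), both of the integrated stress response, together with Atf5 and Jdp2. Atf4 stood at 362 and 408 CPM in the IFN-beta controls, against 288 and 240 CPM after SPT6 siRNA.

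Upstream of AP-1, 14 of 15 MAP kinase cascade genes were tested, with a median of 0.12. Of these Mapkapk2, a kinase downstream of p38, was higher at an unadjusted p under 0.05 (0.41 ± 0.17) and Mapk11, which encodes p38 beta, was lower (-1.06 ± 0.25; adjusted p = 0.309). Among 6 genes of serum response factor and its partners the median was 0.02 and none had an unadjusted p under 0.05. Srf itself stood at 85.8 and 109.5 CPM in the controls, against 70.9 and 111 CPM after SPT6 siRNA, which overlap. Of 6 genes listed for AU-rich mRNA decay, which degrades short-lived mRNAs such as Fos, none had an unadjusted p under 0.05. The median was -0.09. The list was not divided by effect on decay, so its median is no measure of decay.

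Known AP-1 target genes did not follow a single direction. Of 15 listed, 12 were tested, with a median of -0.27 and 8 below 0. Hbegf, which encodes a ligand of the epidermal growth factor receptor, was at 18.5 and 40.7 CPM in the controls, against 53.0 and 125.1 CPM after SPT6 siRNA (log2 difference 1.59 ± 0.55; adjusted p = 0.389). Timp1, which encodes an inhibitor of matrix metalloproteinases, was at 223 and 260 against 156 and 178 CPM (-0.53 ± 0.17; adjusted p = 0.367). In the IFN-beta response with control siRNA the same list had a median of 1.31, with 10 of 12 above 0 and 4 higher at an unadjusted p under 0.05 (against 5.29% of all genes). With SPT6 siRNA the median was 1.15 and 5 were higher (against 3.84%).

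Markers of other states and cell types moved with siRNA in part. Of 6 tested heat shock genes, 5 lay above 0 for SPT6 siRNA with IFN-beta, with a median of 0.40, and Hsph1 was higher at an unadjusted p under 0.05 (0.58 ± 0.23). The summed level of the list was 3399, 4162 and 4702 CPM in the controls, against 3598, 4337 and 3796 CPM after SPT6 siRNA. Most of this sum was Hspa8, at 2425 to 3552 CPM, the only tested gene of the list below 0 (-0.28 ± 0.24). The sum therefore says little about the other genes of the list. Of 7 macrophage markers listed, 6 were in the tables and 3 were tested, all 3 above 0. Their summed level was 7.36 to 10.3 CPM in the controls, against 13.7 to 18.4 CPM after SPT6 siRNA. Most of that gap was Cd68, at 2.20 to 2.71 against 6.47 to 9.92 CPM, whereas the leukocyte marker Ptprc had 0 to 3 counts and Emr1 0 to 1 count in each library. Of 5 endothelial markers, 2 were tested, and Vwf was higher at an unadjusted p under 0.05 (2.32 ± 0.65; edgeR adjusted p = 0.339). Vwf lay at 0.356 to 0.904 CPM in the 3 controls, against 1.73 to 4.09 CPM after SPT6 siRNA, from 6 to 47 counts. The endothelial list summed to 1.60 to 3.99 CPM in the controls, against 3.36 to 5.91 CPM after SPT6 siRNA, which overlap. Of the 10 fibroblast markers, 9 lay below 0 with a median of -0.47, and 3 were lower at an unadjusted p under 0.05 (against 4.31% of all genes). They summed to 17114 to 19730 CPM in the controls, against 12773 to 14905 CPM after SPT6 siRNA. The part of these markers in the differences of the members was not tested.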

How the data were processed

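The deposited values are raw counts per gene symbol made by the authors, 1 table for each of 6 libraries. The builds mm10 and GRCm38 and the tools HTSeq 0.6.1p1, TopHat2 2.1.0 and DESeq2 are listed in the submitters' processing notes, without roles. The annotation and strand setting are not given in the sources used here. Lines that name no gene were left out; 32.9% to 38.0% of all reads listed were in genes. The libraries came from total RNA and were read from both ends, per the labels' protocols.

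Counts were analysed in R 4.3.3. The function filterByExpr (count minimum of 10) kept 13185 genes, and TMM factors scaled them. Tests used edgeR 4.0.16 (estimateDisp, robust glmQLFit, glmQLFTest) on 4 group means over 6 libraries, with 2 residual degrees of freedom, and were adjusted over all genes (Benjamini-Hochberg, threshold 0.05). The SE of a log2 difference was its size divided by the root of the F statistic. Log2 CPM used a prior count of 2. Exon lengths and gene positions came from GENCODE M21 on GRCm38, from the exons of coding basic transcripts. Alternatives used DESeq2 1.42.0, limma 3.58.1 and other scalings, filters and sets of libraries. The edgeR script was tested on simulated counts.

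Members, lists, tests and alternatives were chosen with earlier results of these data known. Named genes were the 9 members, Supt6, up to 4 genes of each list with the smallest p for SPT6 siRNA with IFN-beta, and up to 3 nearest genes of each member whose log2 CPM spanned 1 or more. The nearest genes of Fosl1 are not reported here. Atf5, Jdp2, Ccdc85b, Rn45s, Hspa8 and the marker genes Ptprc and Emr1 were named after their values were seen. Libraries of the same group were no duplicates (their counts gave a chi-square of 40.4 and 35.4 for each degree of freedom). Counting intervals cover counting error only, at 95%.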

Additional observations from a re-analysis of the deposited data

Results flagged for a closer look

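Jun and Fosl2 drew attention because the SPT6 siRNA difference went one way in the untreated pair and the opposite way in both IFN-beta pairs. For Jun the mean log2 difference (prior count of 2) with IFN-beta minus that in untreated cells was -0.51, and for Fosl2 it was 0.37. The untreated side is 1 pair of libraries. As a test of this difference, the interaction in edgeR gave -0.52 ± 0.34 (SE) for Jun and 0.38 ± 0.36 for Fosl2, both with an adjusted p = 0.9999, so neither exceeded the spread between libraries. The untreated ratio was 1.04 for Jun, with a counting interval that includes 1, and 0.881 for Fosl2 (counting interval 0.830 to 0.936). With IFN-beta the Fosl2 ratio was 1.04 in number 1 (0.965 to 1.11, which includes 1) and 1.25 in number 2 (1.18 to 1.32). For Jun the IFN-beta ratios were 0.817 (0.750 to 0.891) and 0.653 (0.607 to 0.703).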

How the results depend on the processing

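With the replicate number as a replicate block, edgeR called 2638 genes and 6 members for SPT6 siRNA with IFN-beta (Fos, Fosb, Junb, Atf3 and Maff higher, Jun lower), and over the 3 matched pairs as the replicate block, which averages the untreated pair in with the IFN-beta pairs, 3245 genes and 6 members (Jund in place of Jun). The block gave 957 genes and 3 members (Jun and Maff higher, Fosl2 lower) for the IFN-beta response with control siRNA, 545 genes and 3 members (Fos and Maff higher, Jund lower) for that with SPT6 siRNA, and 4 genes and 0 members for the difference of responses. The labels do not say what the numbers mark; deviations of number 1 from number 2 correlated over genes between siRNAs (r = 0.56), and this block leaves 1 degree of freedom fewer. DESeq2 called 62, 204 and 129 genes in the first 3 comparisons against 0, 18 and 6, with 1 member (Maff) in the second; without a count filter edgeR called 66, 77 and 46. For the 2 responses limma-voom called 5 and 0. The control response gave 8 genes at a count minimum of 50, and the SPT6 siRNA response 12 when scaled by library size only and 11 without Rn45s. Leaving out 1 IFN-beta library gave 16 to 52 genes in the control response (52 without SPT6 siRNA number 1, 45 without its number 2), 9 to 25 in the SPT6 siRNA response (25 without its number 2, 14 without either control library) and 0 members called in any comparison. The 5 members higher at an unadjusted p under 0.05 for SPT6 siRNA became 3 in DESeq2 and 2 to 5 with 1 library left out, an alternative applied to this count after the data were seen. The causes were not tested. Scaling by library size only moved the share of higher genes at that p from 63.1% to 79.9% for SPT6 siRNA, from 64.3% to 45.5% for the control response and from 65.6% to 52.6% for the SPT6 siRNA response, and turned no member's direction.

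Log2 differences changed sign only with 1 library left out. For SPT6 siRNA, Fosl1 ranged from -0.72 (without SPT6 siRNA number 2) to 1.36, with -0.20 without control number 1, and Fosl2 from -0.061 (without SPT6 siRNA number 2) to 0.41. Fosb in the control response ranged from -1.58 to 0.17 (without control number 1). In the difference of responses Fos ranged from -0.28 (without SPT6 siRNA number 2) to 0.64. There Fosl1 ranged from -1.05 (without SPT6 siRNA number 2) to 1.05, with -0.50 without control number 1, and Junb from -0.54 to 0.022 (without SPT6 siRNA number 1). Across the 14 alternatives Atf3 stayed between 1.24 and 1.79 and Maff between 0.82 and 1.59. Fos, Fosb and Atf3 rest on as few as 13, 5 and 12 counts in a library, which limits their precision.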

Other observations

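In the IFN-beta response with control siRNA, 2 libraries against 1, none of the 6 AU-rich mRNA decay genes passed the adjusted edgeR test. Of these, 1 was higher and 1 lower at an unadjusted p under 0.05, against 5.29% and 2.94% of all genes. They were Zfp36l2 and Zfp36l1, whose proteins shorten the life of mRNAs with AU-rich elements. Zfp36l1 was at 168 and 113 CPM untreated (control and SPT6 siRNA) and at 93.6, 68.4, 80.2 and 59.8 CPM in the IFN-beta libraries (control numbers 1 and 2, then SPT6 siRNA numbers 1 and 2), below its untreated level with each siRNA. Zfp36l2 went from 248.8 CPM to 376 and 429 CPM with control siRNA and from 188 CPM to 252 and 350 CPM with SPT6 siRNA. The log2 difference with control siRNA was -1.05 ± 0.27 (SE; adjusted p = 0.408) for Zfp36l1 and 0.69 ± 0.27 (adjusted p = 0.586) for Zfp36l2.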
